A study of Mus musculus with 11 samples.

Results

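Oxidative phosphorylation is the process by which mitochondria pass electrons along complexes I to IV of the inner membrane and use the resulting proton gradient to make ATP at complex V. A small set of membrane subunits is encoded by the mitochondrial genome itself, which is transcribed as long RNAs that are then cut into single messengers, and all other subunits are transcribed in the nucleus and imported. Endothelial cells are known to draw much of their ATP from glycolysis, while their respiratory chain also serves redox balance during proliferation. The genes described here were taken by name from the count table: symbols starting with Nduf, Uqcr, Cox4 to Cox8 or Atp5, the genes Sdha to Sdhd, and the 13 protein genes of the mitochondrial genome. The names matched 113 of 27179 rows, and 96 of them had 10 or more reads in at least 3 libraries: 83 of 100 nuclear encoded and 13 of 13 mitochondrially encoded genes. All 96 passed the filter on low counts and were among the 11949 genes tested. The 83 nuclear encoded genes were 77 subunits (37 of complex I, 4 of complex II, 7 of complex III, 12 of complex IV and 17 of complex V), 5 assembly factors of complex I and the pseudogene Ndufs5-ps. Reads may be split between Ndufs5 and Ndufs5-ps, and between the near-identical copies Ndufb4 and Ndufb4b and the further copy Ndufb4c. The values of these genes are therefore uncertain.

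RNA was measured in endothelial cells with high CD31 and high endomucin (EMCN), a surface profile of bone capillaries, sorted from the bone marrow of BALB/c mice after cells with the blood markers CD45 or Ter-119 had been gated out. In mice burdened with 4T1.2 mammary tumour cells carrying red fluorescent protein, marrow infiltrated by tumour (met, 3 libraries) was dissected away from tumour-free marrow of the same bones (non-met, 6 libraries) by the fluorescence, and age-matched mice without tumour served as control (2 libraries). Each library came from a pool of mice. The met libraries 1, 2 and 3 came from the pools Burdened-2, Burdened-3 and Burdened-4, non-met libraries 1 and 5 from Burdened-1, 2 and 6 from Burdened-2, 3 from Burdened-3 and 4 from Burdened-4, and the control libraries from Control-1 and Control-2. Met and non-met libraries of a pool therefore share animals, the 6 non-met libraries stand for 4 pools, and p-values over libraries treat libraries that share a pool as separate. The model is a single tumour line in a single strain. Libraries held 733342 (non-met 4) to 19539761 (control 1) reads in genes. CPM (counts scaled to a common library size) were adjusted by TMM (trimmed mean of M values). Pecam1 (CD31) had 972 to 3164 CPM and Emcn 351 to 1361 CPM, so both markers of the sort were present in all 11 libraries.

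The mitochondrial genome is compact, and the sequences of neighbouring genes are shown because their shared bases limit which reads can be assigned to a single gene. Capitals mark bases that belong to 2 genes (GENCODE M21, GRCm38). ATP8, a small membrane subunit of ATP synthase (chrM:7766-7969), shares its last 43 bases, 21.1% of its length, with the start of ATP6 (chrM:7927-8607). ND4L (chrM:9877-10173) shares its last 7 bases with ND4 (chrM:10167-11544). ND5 (chrM:11742-13565) shares its last 14 bases with ND6 (chrM:13552-14070), which lies on the opposite strand. The low-input kit used here does not mark strand, so reads of ND6 and reads from the strand opposite it cannot be told apart.
ATP8: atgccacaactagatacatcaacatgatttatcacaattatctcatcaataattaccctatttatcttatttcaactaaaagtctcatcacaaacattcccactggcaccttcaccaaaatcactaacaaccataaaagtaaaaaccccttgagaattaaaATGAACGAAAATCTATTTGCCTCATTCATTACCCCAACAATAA
ND4L, last 30 bases: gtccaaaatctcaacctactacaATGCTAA
ND5, last 30 bases: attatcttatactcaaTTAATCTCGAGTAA

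The nuclear encoded genes lie on 19 chromosomes, 3 of them on X. Promoter windows from 250 bases before to 50 bases after the start site (RefSeq, GRCm38.p6) were found for 68 of the 83 genes. Motifs of factors known for promoters of respiratory chain genes were searched on both strands. Some genes had more than 1 window, and a gene counted if any of its windows held the motif. The NRF1 motif was found for 18 of the 68 genes (26.5%) and for 5.19% of 27025 genes with a window. The ETS motif CCGGAAG, bound by GABPA among others, was found for 17 of 68 (25%) and for 9.93% of all these genes. The YY1 motif was found for 5 of 68 (7.35%) and for 0.995%. At least 1 of the 3 motifs was found for 34 of 68 genes (50%) and for 14.6% of all these genes. A match is a run of letters, not a measured site. The windows of 3 genes described below are shown, with motifs in capitals, which show the letters searched for NRF1 (with any base allowed at 1 position) and ETS on either strand. Uqcrh, the hinge subunit of complex III, has an ETS motif starting 10 bases before the start site. Cox6a1, a complex IV subunit, has NRF1 motifs at 162 and 117 bases before it and an ETS motif at 16 bases before it. Atp5g3, which codes for the c-ring of ATP synthase, has an NRF1 motif 12 bases after it.
Uqcrh (chr4:116075021-116075320, minus strand): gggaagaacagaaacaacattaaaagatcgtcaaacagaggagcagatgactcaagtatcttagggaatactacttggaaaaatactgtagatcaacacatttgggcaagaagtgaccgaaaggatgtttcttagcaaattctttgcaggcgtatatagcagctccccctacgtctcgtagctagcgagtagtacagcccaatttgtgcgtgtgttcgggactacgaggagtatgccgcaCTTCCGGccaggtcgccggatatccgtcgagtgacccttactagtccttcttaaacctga
Cox6a1 (chr5:115348909-115349208, minus strand): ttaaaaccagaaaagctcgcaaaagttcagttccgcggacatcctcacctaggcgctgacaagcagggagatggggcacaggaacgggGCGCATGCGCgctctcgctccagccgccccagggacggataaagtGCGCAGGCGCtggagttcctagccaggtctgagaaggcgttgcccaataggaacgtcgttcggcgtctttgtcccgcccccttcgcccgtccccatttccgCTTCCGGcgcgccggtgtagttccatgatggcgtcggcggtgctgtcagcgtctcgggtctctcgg
Atp5g3 (chr2:73911277-73911576, minus strand): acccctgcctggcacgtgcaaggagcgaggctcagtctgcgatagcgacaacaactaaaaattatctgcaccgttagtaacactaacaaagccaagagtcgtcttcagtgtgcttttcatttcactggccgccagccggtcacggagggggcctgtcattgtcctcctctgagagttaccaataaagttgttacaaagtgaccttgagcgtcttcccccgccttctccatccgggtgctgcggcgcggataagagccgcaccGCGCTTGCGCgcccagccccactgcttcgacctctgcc

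In marrow of tumour-burdened mice outside the tumour, the 13 mitochondrially encoded genes took a larger share of the reads than in control marrow, and inside the tumour their share overlapped both. They took 5.22% and 6.02% of the reads in control, 6.46%, 10.3% and 16.7% (lowest, median and highest) in non-met, and 9.08%, 6.41% and 4.05% in met libraries 1 to 3. All 6 non-met libraries lay above both control libraries, while met libraries lay on both sides of control and overlapped the lower non-met libraries. The means were 5.62% ± 0.568 (SD, n = 2) in control, 10.8% ± 3.35 (n = 6) in non-met and 6.52% ± 2.52 (n = 3) in met. The 83 nuclear encoded genes took 0.450% and 0.521% in control, 0.390%, 0.509% and 0.621% in non-met, and 0.502%, 0.501% and 0.669% in met. These shares overlapped between all groups. Scaled by TMM, their summed level was 4299 to 4635 CPM in control, 4611 to 7061 CPM in non-met and 5199 to 6731 CPM in met, higher in met than in control without overlap. Their mean log2 CPM, in which low genes count as much as high ones, was 4.49 to 4.79 in control, 3.41 to 4.13 in non-met and 3.27 to 5.03 in met, lower in non-met than in control without overlap.

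The ratio of the 2 sums of reads does not depend on how libraries are scaled. On the log2 scale it was 3.54 and 3.53 in control, 3.46, 4.34 and 5.42 in non-met, and 4.18, 3.68 and 2.60 in met. A single non-met library (replicate 6) lay just below control and the other 5 above it, and met overlapped both groups. The mean ratio was 0.85 higher in non-met than in control, and 0.90 lower in met than in non-met. Between met and control the means differed by -0.05, but by 0.39 without met replicate 3. Computed from the mean log2 CPM of each set instead, the difference was 0.80 between met and control and 2.12 between non-met and control, so the direction between met and control depended on these choices. The sums cover all members and were compared without a test. Without met replicate 3 the difference between met and non-met was -0.45, and without non-met replicates 1 and 2 it was -0.54. Without those 2 libraries the difference between non-met and control was 0.49.

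**Figure D1:**
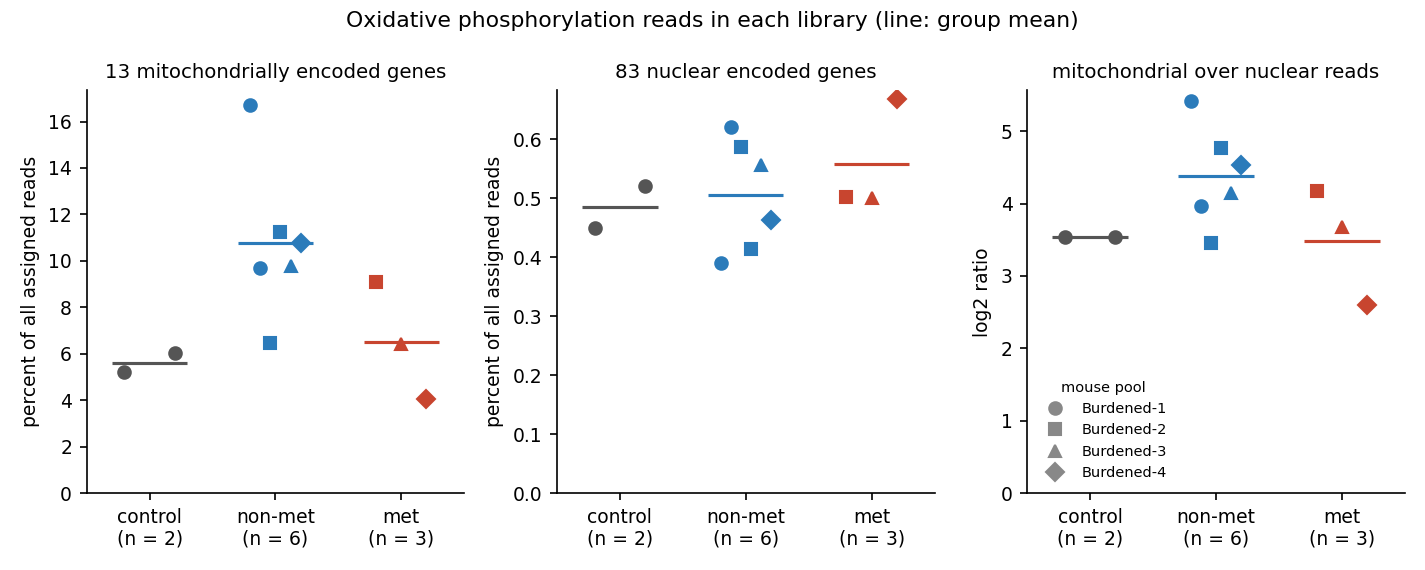
Share of all reads in genes, in percent, taken by the mitochondrially encoded genes and by the nuclear encoded genes, and the log2 ratio of the 2 sums of reads, for 2 control, 6 non-met and 3 met libraries; each point is a library and bars are group means. The non-met libraries sit at 6.46% to 16.7% for the mitochondrially encoded genes, above both control libraries, while the nuclear encoded shares overlap.

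Other measures of the libraries also differed between groups, and not all followed the mitochondrially encoded share. Rows of mitochondrial ribosomal RNA took 0.175% to 0.177% of reads in control, 0.262% to 1.10% in non-met and 0.245% to 0.475% in met. All rows left out before CPM, such as predicted genes and ribosomal RNA, took 1.94% to 2.87% in control, 3.38% to 15.7% in non-met and 2.91% to 3.46% in met. Non-met lay above control without overlap, and non-met 1, the highest, also had the highest mitochondrially encoded share. The nuclear RNA Malat1 had 550.1 and 503 CPM in control, 489.9 to 3376 CPM in non-met and 292, 699 and 178 CPM in met, so that 5 of 6 non-met libraries were above both control libraries and non-met 2 below them. Neat1, another nuclear RNA, had 106 and 45.3 CPM in control, 2.18 CPM in non-met 3 and 262 to 600.3 CPM in the other 5 non-met libraries, all 5 above control, and 212, 181 and 2.30 CPM in met. The summed level of 15 granulocyte markers ranged over 157 to 359 in control, 403 to 5340.1 in non-met, 95.5 to 207 in met (CPM), so that non-met lay above both other groups without overlap, and none of the 15 was at 0 in all libraries. It was highest in non-met 6 at 5340.1 CPM, which had the lowest mitochondrially encoded share among non-met libraries, and next in non-met 1 at 3896 CPM, which had the highest. Of 14 granulocyte markers tested, voomLmFit called 0 in each comparison, with 9, 2 and 8 at an unadjusted p under 0.05. Between met and non-met limma-trend called 1, the quasi-likelihood test 4 and DESeq2 9, beside 0.0167%, 0.134% and 3.21% of all genes. Between non-met and control all 14 were higher. There the quasi-likelihood test called 1 and DESeq2 4, beside 0.117% and 2.63% of all genes. Between met and control DESeq2 called 2, beside 2.26%. The summed level of 15 endothelial markers ranged over 10236 to 14677 in control, 11267 to 18023 in non-met, 15936 to 18162 in met, and that of 10 mammary epithelial markers over 1.03 to 19.5 in control, 1.44 to 146 in non-met, 11.8 to 75.4 in met, with 1 of the 10 at 0 in all libraries. The summed level of 10 markers of stroma and bone-forming cells ranged over 4041 to 10961 in control, 972 to 3801 in non-met, 398 to 2374 in met, with 1 of the 10 at 0 in all libraries, so control lay above both other groups without overlap. voomLmFit called 4 of the 15 endothelial markers higher in met than in non-met, beside 0.427% of all genes, among them Pecam1 at 0.89 on the log2 scale (adjusted p = 0.000447, voomLmFit). It called 4 higher and Kdr lower in met than in control, beside 1.2%, and Eng lower in non-met than in control, beside 0.636%, and limma-trend called 0 of the 15. The fitted change of Kdr was -0.48, although its unweighted means differed by 0.08. Of the stromal markers, voomLmFit called Cxcl12, a chemokine of marrow stroma, lower than control in met at -4.07 (adjusted p = 2.15e-08, voomLmFit; 0.0167 by limma-trend) and in non-met at -3.12 (adjusted p = 1.61e-09, voomLmFit; 0.121 by limma-trend). The other marker genes called by voomLmFit were Itga2b of megakaryocytes, higher in met, and, lower in met, Abcc9 of pericytes at -1.13 and the nuclear RNA Xist at -1.40, all between met and control and none called by limma-trend. The unweighted means of Abcc9 differed by -0.64 and those of Xist by -0.47. The summed level of 12 monocyte and macrophage markers ranged over 950 to 1554 in control, 429 to 1400 in non-met, 307 to 854 in met (CPM). That of 7 megakaryocyte markers ranged over 0 to 31.3, 0 to 57.7 and 42.4 to 123. Met and control did not overlap for either list, and 5 of the 12 and 2 of the 7 were at 0 in all libraries. The part of endothelial, granulocyte, stromal, monocyte and megakaryocyte RNA, left-out rows, RNA quality and depth in the differences was not tested. In bulk libraries, fewer cells of a type and less RNA per cell cannot be told apart.

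Within the pools that gave both kinds of library the sizes differed. In Burdened-2 the log2 ratio was 4.18 in met and 4.11 as the mean of 2 non-met libraries, 4.76 in non-met 2 and 3.46 in non-met 6. In Burdened-3 it was 3.68 in met and 4.14 in non-met, and in Burdened-4 it was 2.60 and 4.54. Met was thus lower than the single non-met library of Burdened-3 and of Burdened-4, and in Burdened-2 it lay between the 2 non-met libraries. Gene by gene, all 13 mitochondrially encoded genes were lower in met in Burdened-3 (median difference of log2 CPM -0.86) and in Burdened-4 (-1.93), whereas 4 were lower and 9 higher in Burdened-2 (0.23). COX3, ND3, ND4L and ND5 were lower in met in all 3 pools, 30.8% of the 13 genes beside 8.84% of all genes tested. In Burdened-2 their differences were -0.043 for COX3, -1.02 for ND3, -0.058 for ND4L and -0.43 for ND5. Of the nuclear encoded genes 7 of 83 (8.43%) were lower and 7 higher in all 3 pools, beside 8.84% and 10.6% of all genes tested.

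**Figure D2:**
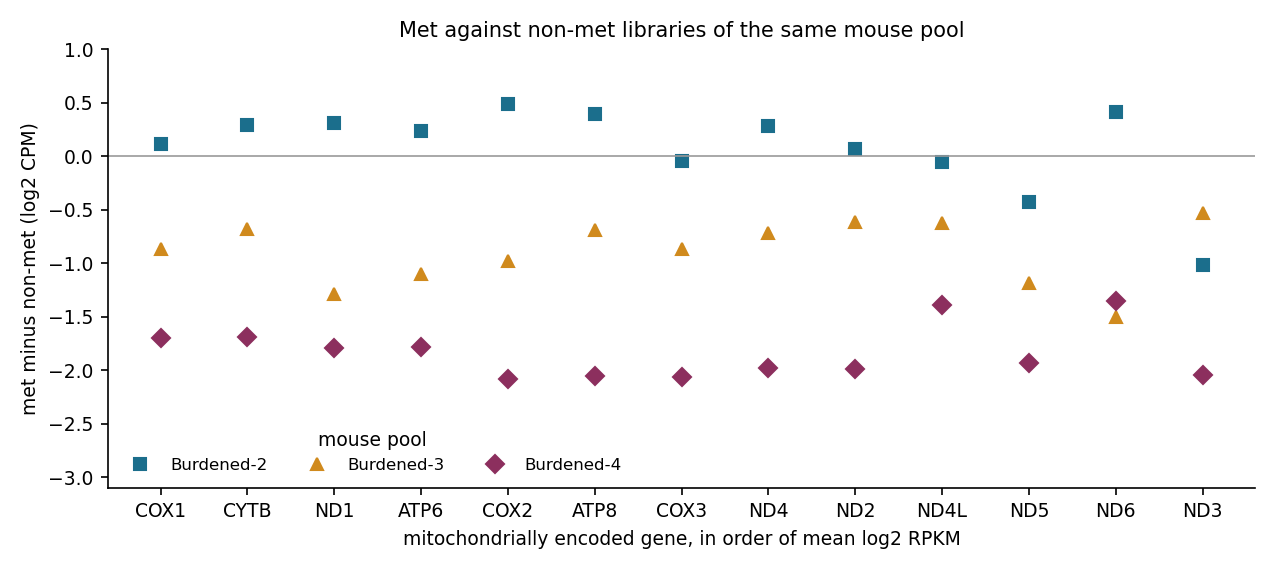
Difference of log2 CPM, met minus non-met, of each mitochondrially encoded gene within the 3 mouse pools that gave both kinds of library; in Burdened-2 the non-met value is the mean of 2 libraries. Points of Burdened-4 lie between -2.08 and -1.36, and those of Burdened-2 between -1.02 and 0.49.

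Among the mitochondrially encoded reads, COX1, the catalytic subunit of complex IV, held 36.1% ± 2.68 (SD, n = 2) in control, 35.9% ± 1.89 (SD, n = 6) in non-met, 36.8% ± 0.148 (SD, n = 3) in met. CYTB, the cytochrome b of complex III, held 14.7% ± 0.478 (SD, n = 2) in control, 13.9% ± 0.971 (SD, n = 6) in non-met, 14.9% ± 0.843 (SD, n = 3) in met. ND5, a proton-pumping subunit of complex I, held 4.97% ± 0.334 (SD, n = 2) in control, 6.52% ± 0.749 (SD, n = 6) in non-met, 5.18% ± 1.21 (SD, n = 3) in met. The share of ND5 was 4.73% to 5.20% in control and 5.78% to 7.81% in non-met, without overlap. ND4 held at least 10.4% in both control libraries, above 7.76% to 9.86% in non-met and 8.59% to 9.44% in met. ND2 held 5.46% to 5.57% in control and 4.22% to 4.43% in met, and ND4L 1.16% to 1.49% and 0.940% to 1.12%, both without overlap. The shares of the other 9 genes overlapped between all groups. Per length (mean log2 RPKM, reads scaled by gene length and library size, over 11 libraries) the order ran from COX1 at 14.31 and CYTB at 13.40 through ND1 at 12.88, ATP6 at 12.85, COX2 at 12.81, ATP8 at 12.69, COX3 at 12.55 and ND4 at 12.51 to ND2 at 11.96, ND4L at 11.65, ND5 at 11.42, ND6 at 10.78 and ND3 at 9.75. COX1 was above CYTB by 0.91 ± 0.11 (SD over 11 libraries) and in 11 of 11 libraries. From ND1 to ND4, neighbours in the order differed by 0.03 to 0.15 on the log2 scale, in each case less than the SD of the difference, so these neighbours did not differ beyond their spread.

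Each of the 13 genes had a higher mean log2 CPM in non-met than in control and a lower mean in met than in non-met. COX1 had 17067 and 20382 CPM in control, 25594, 45716 and 70174 CPM in non-met (lowest, median and highest, here and for the genes that follow) and 37658, 24422 and 15038 CPM in met. All non-met values of COX1 were above control, and 2 of the 3 met values were below the lowest non-met value. CYTB had 7500.2 and 7702 CPM in control, 9365, 16669.8 and 28659 CPM in non-met and 16076, 9387 and 6048 CPM in met. Met values of CYTB overlapped both other groups.

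Among the genes of complex I, ND3 had 174 and 109.9 CPM in control, 373, 442 and 1146 CPM in non-met and 218, 291 and 89.8 CPM in met. No met or control library of ND3 reached the lowest non-met library. ND5 had 2595 and 2536 CPM in control, 3806, 7874 and 12614 CPM in non-met and 3928, 3650.3 and 2537 CPM in met, so that met replicate 1 was just inside the non-met range. ND1, a core membrane subunit, had 4333 and 3849.8 CPM in control, 5114, 11455 and 17150.2 CPM in non-met and 9133, 5437 and 3559 CPM in met. ND4, another proton-pumping subunit, had 5197 and 5878 CPM in control, 6035, 10051 and 19899 CPM in non-met and 9305, 6286 and 3505 CPM in met. Non-met was above control without overlap for both. ND2 had 2719.8 and 2987 CPM in control, 2742, 6121 and 10328 CPM in non-met and 4300.2, 2949.9 and 1748 CPM in met. ND4L had 581 and 797 CPM in control, 694, 1316 and 2353 CPM in non-met and 959, 660.4 and 456 CPM in met. ND6 had 503 and 441 CPM in control, 369.6, 1431 and 2721 CPM in non-met and 1017, 815 and 500.3 CPM in met. For ND2, ND4L and ND6 the lowest non-met library was within or below the control values.

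COX3, a core subunit of complex IV, had 2546 and 2848 CPM in control, 3964, 6647 and 11481 CPM in non-met and 5050.4, 3554 and 1944 CPM in met. COX2, which takes electrons from cytochrome c, had 2929.7 and 2809 CPM in control, 3588, 7122 and 10223 CPM in non-met and 6858, 3820.3 and 2246 CPM in met. For ATP synthase, ATP6, part of the proton channel, had 2941 and 2675 CPM in control, 3259, 8038 and 12259.5 CPM in non-met and 5854, 4045 and 2453 CPM in met. All 3 genes were above control in non-met without overlap, and met overlapped non-met. ATP8, whose 3′ end lies within ATP6 in the sequence shown above, had 769.9 and 591 CPM in control, 862, 2047 and 2740.2 CPM in non-met and 1564, 1294 and 657 CPM in met, with the same order.

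**Figure D3:**
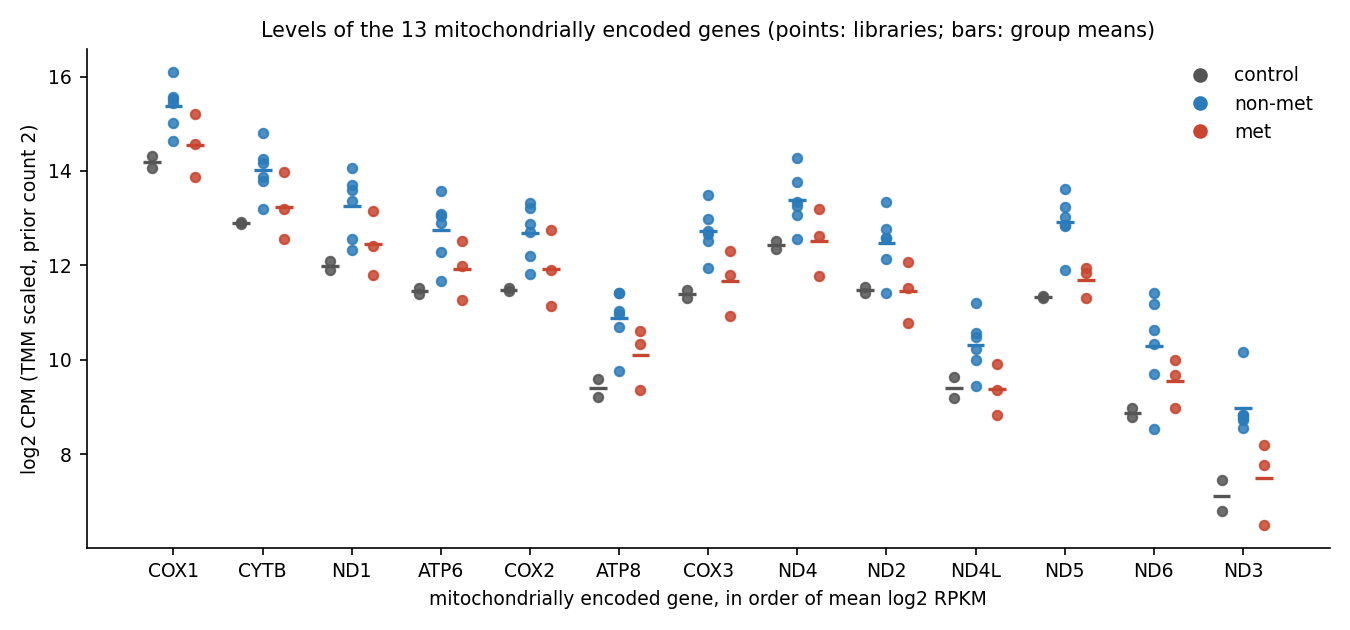
Log2 CPM of each mitochondrially encoded gene in each of the 11 libraries, by group; each point is a library and bars are group means. Non-met points lie above both control points for 10 of the 13 genes, and met points overlap non-met points for all genes except ND3.

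Between non-met and control, the differences of mean log2 CPM ranged from 0.91 (ND4L) to 1.86 (ND3), with a median of 1.27 beside -0.79 for all genes tested. The libraries of the groups did not overlap for 10 of the 13 genes (76.9%), all higher in non-met, beside 1.26% of all genes tested. The exact two-sided permutation test over libraries gave p = 0.0357, the smallest it can give here, for ND1, COX1, COX2, ATP8, ATP6, COX3, ND3, ND5 and CYTB. For ND4 the exact p was 0.0714, and for ND2, ND4L and ND6, which overlapped, 0.107, 0.143 and 0.179 by the same permutation test. ND5 rose from 11.33 ± 0.02 (SD, n = 2) in control to 12.91 ± 0.58 (n = 6) in non-met on the log2 CPM scale (p = 0.0357, exact permutation test). Relative to the median of all genes, the 13 genes lay 2.06 higher with TMM scaling and 2.02 to 2.08 higher over the 4 scalings tried. This baseline is not matched for level. Among the nuclear encoded genes the median was -0.25 for the 41 of higher mean level and -1.55 for the 42 of lower mean level. Without non-met replicates 1 and 2 all 13 remained higher, with exact permutation p between 0.0667 and 0.333. Here 0.0667 is the smallest p that the remaining libraries can give, so no gene could pass 0.05.

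Between met and non-met, the differences ranged from -1.49 (ND3) to -0.75 (ND6), with a median of -0.84 beside 0.26 for all genes tested. ND3 had 7.49 ± 0.88 (SD, n = 3) in met and 8.97 ± 0.59 (n = 6) in non-met on the log2 CPM scale, with p = 0.0119 by the exact permutation test, the smallest it can give here. ND3 alone of the 13 genes had no overlap, beside 0.444% of all genes tested lower in met without overlap. COX3 differed by -1.05 and ND5 by -1.22, each with an exact permutation p of 0.0238. For the other 10 genes the exact permutation p was between 0.0595 (ND4L) and 0.286 (ND6), above the 0.05 threshold. With so few libraries, this does not show that their levels were alike. Without met replicate 3 all 13 genes were still lower in met, but 11 of the differences shrank by more than 1.5 times, all but those of ND4L and ND5, and they ran from -1.03 (ND5) to -0.37 (COX2), with -0.67 for COX3, -0.99 for ND3, -0.67 for ND2, -0.51 for ATP6, -0.49 for COX1, -0.48 for ND1, -0.48 for ND4, -0.46 for ND6, -0.43 for CYTB and -0.40 for ATP8. The exact permutation p was then 0.107 for ND3 and ND5 and 0.179 for COX3, so that none of the 13 was under 0.05. COX3 and ND5 were also above the 0.05 threshold without met replicate 2 or any of non-met replicates 2 to 5 (exact permutation p up to 0.0714). COX2 differed by -1.17 without met replicate 1. Without non-met replicates 1 and 2, ND6 differed by -0.39, and the exact permutation p was 0.0286 for ND3 and 0.0857 for COX3 and ND5. Relative to the median of all genes, the 13 genes lay at -1.10 with TMM scaling, and the median of all genes itself moved by -0.13 with RLE scaling.

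Between met and control, the differences ranged from -0.04 (ND4L) to 0.70 (ATP8), with a median of 0.37 beside -0.35 for all genes tested. All 13 genes overlapped, beside 20.7% of all genes tested without overlap. The exact permutation p was 0.3 or more for each gene, where 0.1 is the smallest that 3 against 2 libraries can give. The 3 comparisons share libraries, so their directions are not independent.

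**Figure D4:**
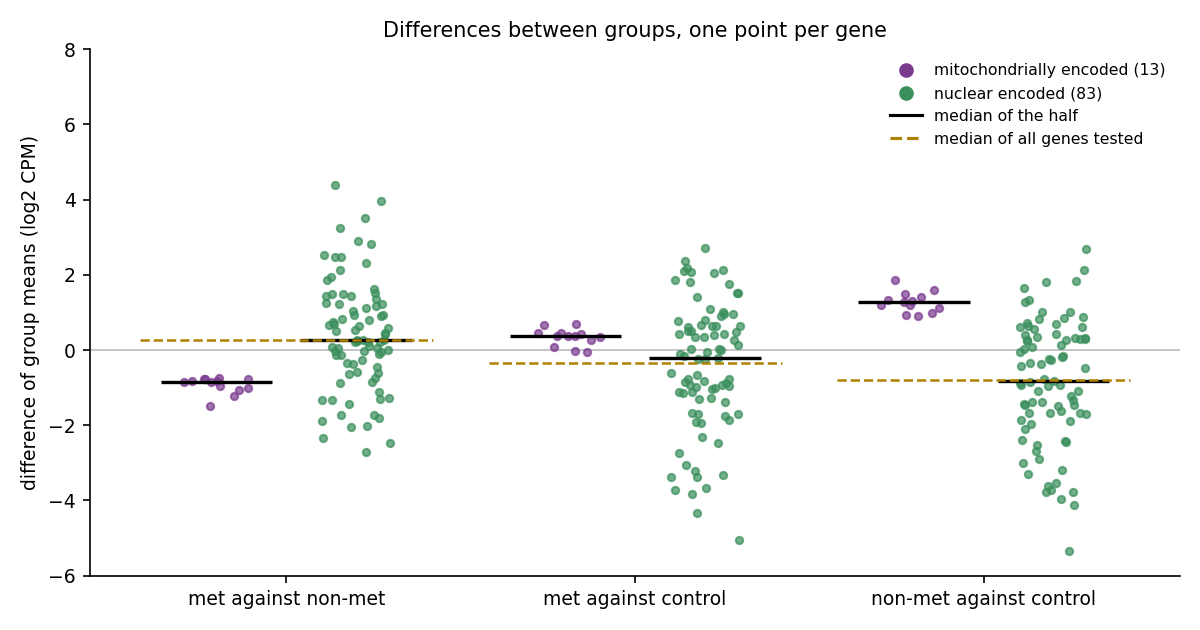
Differences of mean log2 CPM in the 3 comparisons for the 13 mitochondrially encoded and the 83 nuclear encoded genes; each point is a gene, and the median of all 11949 genes is marked. The mitochondrially encoded genes form a narrow band with medians of -0.84, 0.37 and 1.27, and the nuclear encoded genes spread widely around medians of 0.26, -0.20 and -0.81 (met against non-met, met against control, non-met against control).

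In the model across all genes (voomLmFit of edgeR with sample weights, Benjamini-Hochberg adjustment, threshold 0.05), 11 of the 13 mitochondrially encoded genes were called between met and non-met, beside 0.427% of all genes. Of these, 10 were lower in met, among them ND5 with a fitted log2 change of -1.70 ± 0.02 (SE; adjusted p = 1.82e-26, voomLmFit), where its unweighted means differed by -1.22. CYTB was called higher, at 0.20 ± 0.03 (SE; adjusted p = 3.80e-04, voomLmFit), although its unweighted means differed by -0.77. Between non-met and control 9 of 13 were called, all higher, beside 0.636% of all genes, and between met and control ND1 and CYTB were called higher, beside 1.2%. The weights of this model were uneven for these abundant genes. A single library held over 90% of the weight of its group for 7 of the 13 genes between met and non-met, for 10 between met and control and for 11 between non-met and control, and for 0 of the 83 nuclear encoded genes. For ND5, met 3 held 98.4% of the met weight and non-met 3 held 99.7% of the non-met weight, so its fitted change compared mainly these 2 libraries. For CYTB, met 1 held 99.8% of the met weight and non-met 5 held 97.9% of the non-met weight.

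Other models gave fewer calls between met and non-met. limma-trend, which has no such weights, called ND5 lower in met (adjusted p = 0.0185), beside 0.0167% of all genes, and COX1, COX3 and ND5 higher in non-met than in control, beside 0.067% (adjusted p = 0.00116 for ND5). The quasi-likelihood test of edgeR called ND2, COX1, COX3, ND4, ND5 and CYTB lower in met than in non-met, beside 0.134% of all genes, and 8 genes higher in non-met than in control, beside 0.117%. DESeq2 called ND2, COX3 and ND5 lower in met than in non-met, beside 3.21% of genes, and 10 genes higher in non-met than in control, beside 2.63%. ND5 was called by all 4 tools in both comparisons. Between met and control limma-trend, the quasi-likelihood test and DESeq2 called 0 of the 13, beside 0.0753%, 0.0837% and 2.26% of all genes, with 0, 5 and 0 genes at an unadjusted p under 0.05.

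The nuclear encoded genes had median differences near those of all genes tested, and few were called by any tool. Their median difference was 0.26 between met and non-met (all genes: 0.26), -0.81 between non-met and control (all genes: -0.79) and -0.20 between met and control (all genes: -0.35). voomLmFit called 0 of the 83 in each comparison, with 2 genes at an unadjusted p under 0.05 in met against non-met, 7 in met against control and 10 in non-met against control. limma-trend and the quasi-likelihood test also called 0 in each, with 0 to 2 genes at an unadjusted p under 0.05. DESeq2 called 1, Ndufaf5, an assembly factor of complex I, lower in met than in non-met (adjusted p = 0.0333), 1 of 83 beside 3.21% of all genes, and had 4, 1 and 0 genes at an unadjusted p under 0.05. Ndufaf5 had 194 CPM in non-met 4, the shallowest library, and 49.8 CPM in non-met 6, but at most 0.311 CPM in the other 4 non-met libraries and at most 0.115 CPM in met, so the call rested on 2 of 6 non-met libraries. Without overlap, 12 of 83 genes (14.5%) differed between met and control beside 20.7% of all genes, 4 of 83 (4.82%) between non-met and control beside 6.29%, and 0 of 83 between met and non-met beside 1.98%.

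Single nuclear encoded genes were measured less evenly. Their SD over the 6 non-met libraries had a median of 2.65 on the log2 CPM scale, beside 0.59 for the mitochondrially encoded genes. Of the 83, 41 had reads in all 11 libraries, 42 had 0 reads in at least 1 library, and 16 reached 10 reads in all 11. A count of 0 allows up to 0.147 CPM in the deepest library and up to 5.43 CPM in the shallowest (3 reads on the TMM-adjusted scale, which covers counting error only). The number at 0 did not follow depth alone, with 23 genes at 0 in non-met 1 (6702201 reads) and 12 in non-met 4 (733342 reads). With this spread, the absence of a call does not show that their levels were alike.

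The nuclear encoded subunits of complexes II to V were read through the most abundant gene of each, per length. Complex II, which has no mitochondrially encoded subunit, was led by its iron-sulphur subunit Sdhb (mean log2 RPKM 6.11), with 9.53 and 61.9 CPM in control, 35.0, 69.3 and 250.3 CPM in non-met and 115, 53.3 and 195 CPM in met. The mean of Sdhb was 2.10 higher in met than in control on the log2 CPM scale, with overlap and an exact permutation p of 0.3. Uqcrh, whose promoter window is shown above, led the 7 nuclear genes of complex III (mean log2 RPKM 6.97), with 94.3 and 125 CPM in control, 43.4, 73.1 and 216 CPM in non-met and 2.20, 82.4 and 176 CPM in met. Met replicate 1 was low, and the groups overlapped.

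Cox4i1, a regulatory subunit, led the 12 nuclear genes of complex IV (mean log2 RPKM 8.30), with 122 and 219 CPM in control, 69.9, 194 and 603 CPM in non-met and 430.4, 211 and 359 CPM in met. Atp5b, the catalytic beta subunit, led the 17 nuclear genes of complex V (mean log2 RPKM 8.13) and varied least among the nuclear encoded genes in non-met, with an SD of 0.35. It had 377 and 417 CPM in control, 429, 519 and 789 CPM in non-met and 955, 545 and 453 CPM in met. Both groups of burdened mice lay above control without overlap for Atp5b, with exact permutation p of 0.2 for met and 0.107 for non-met, and adjusted p of 0.350 and 0.243 by voomLmFit. The median differences between met and non-met depended on single met libraries for complexes I to IV. For complex III the median was -1.27, and 0.31 without met replicate 1. For complex I it was 0.26, and -0.35 without met replicate 3. For complex II it was 0.46, and -0.006 without met replicate 3. For complex IV it was 0.57, and -0.051 without met replicate 2. For complex V it was 0.21, and 0.14 to 0.43 with a library left out.

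**Figure D5:**
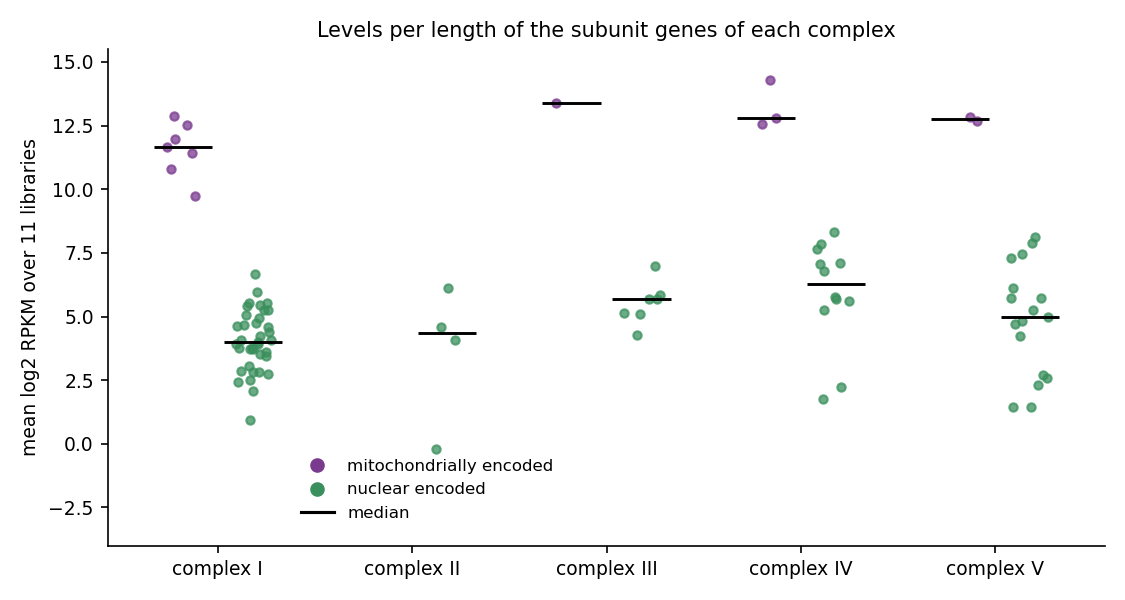
Levels per length (mean log2 RPKM over 11 libraries) of the subunit genes of complexes I to V, by genome of origin; each point is a gene. The mitochondrially encoded genes lie between 9.75 (ND3) and 14.31 (COX1), and the highest nuclear encoded gene is Cox4i1 at 8.30.

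Several subunits exist as isoforms known for different tissues. Cox4i1 had reads in all 11 libraries, while Cox4i2, known from lung and low oxygen, had 84 reads in control 2 and 0 in the other 10 libraries. Of the forms known from muscle, Cox6a2 and Cox8b had 0 reads in all 11 libraries, and Cox7a1 had 142 reads in non-met 5 and 1 in non-met 4. The widely expressed forms had mean levels per length of 7.67 log2 RPKM for Cox6a1, 7.86 for Cox8a, 7.09 for Cox7a2l and 7.07 for Cox6b1. Cox7a2 had 0 reads in 5 of 11 libraries. The testis forms Cox6b2 (106 reads in control 2, 0 in the other 10) and Cox8c (0 reads) were not kept. Ndufa4, now known as a complex IV subunit, averaged 5.59 log2 RPKM and was below 3 CPM in non-met 3, non-met 5 and met 1, while its relative Ndufa4l2 had reads only in control 1 (94) and met 1 (322). Among the genes for the c-ring, Atp5g3 led at 7.30 log2 RPKM, above Atp5g2 at 2.32 and Atp5g1 at 1.43. None of the kept isoform genes was called by voomLmFit in any of the 3 comparisons, with adjusted p of 0.272 or more. Uqcr11 and Cox7b2 had 0 reads, and Ndufs6b, Ndufaf3, Ndufaf7, Ndufaf8, Ndufa11b, Ndufb4, Atp5c1-ps and Uqcrh-ps1 reached 10 reads in at most 2 libraries.

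The rest of the pathway was read from lists of genes, in the order met against non-met, met against control and non-met against control. Of 35 other assembly factors tested, voomLmFit called 0 in each comparison (1, 3 and 8 at an unadjusted p under 0.05), with median differences of 0.74, -0.36 and -1.23, and DESeq2 called 1 in the last comparison, beside 2.63% of all genes. Of 27 genes for copying, transcribing and processing mitochondrial DNA and RNA, it called 0, 0 and 1 (0, 3 and 6 unadjusted), with medians of 1.26, -1.09 and -1.59. The called gene was Mterf3, a repressor of mitochondrial transcription, lower in non-met than in control at -6.36 on the log2 scale (adjusted p = 0.0238, voomLmFit) and not called by limma-trend (adjusted p = 0.875), 1 of 27 beside 0.636% of all genes. Mterf3 had 38.5 and 75.5 CPM in control, 19.7 CPM in non-met 2 and at most 0.311 CPM in the other 5 non-met libraries, and 115, 0.190 and 9.87 CPM in met. For 9 regulators of mitochondrial biogenesis the medians were 0.94, 0.31 and -1.15, for 14 carriers and electron partners -0.33, -0.24 and 0.04, for 17 genes of the citric acid cycle -0.33, 0.18 and -0.36, and for 74 genes of the mitochondrial ribosome 0.30, -1.10 and -1.31. voomLmFit called 0 genes of these 4 lists, with 2, 2 and 1, 0, 0 and 2, 0, 1 and 2, and 2, 9 and 13 at an unadjusted p under 0.05. limma-trend and the quasi-likelihood test called 0 genes of any of the 6 lists, and DESeq2 called 2, 2 and 1 of the 74 genes of the mitochondrial ribosome, beside 3.21%, 2.26% and 2.63% of all genes. The medians of all genes tested were 0.26, -0.35 and -0.79.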

How the data were processed

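The deposited files hold raw read counts per Entrez gene for 11 libraries. Per the study's methods, the authors amplified total RNA with a low-input kit, mapped reads onto mm10 (Rsubread), and took counts by featureCounts from the annotation built into it. The strand setting is not given in the sources used here. Molecular identifiers are not mentioned in the sources used here, so PCR copies may be counted as reads. Symbols came from RefSeq for 25275 and from GENCODE for 18 of 27179 rows. The study's methods state that ribosomal and predicted genes, contigs not placed in the assembly and obsolete gene IDs were removed. Here rows of ribosomal RNA, of predicted genes and without a symbol (1.94% to 15.7% of reads) were left out, also from the library sizes used for CPM. Genes were filtered with filterByExpr (minimum count 10, minimum total 15), scaled by TMM and fitted in 1 model of 3 groups with voomLmFit (edgeR 4.0.16, limma 3.58.1, R 4.3.3), with Benjamini-Hochberg adjustment over 11949 genes. Levels are log2 CPM with a prior count of 2. Group differences of single genes were also tested by exact two-sided permutation of libraries, whose smallest p is set by the number of libraries. Alternatives were limma-trend, DESeq2 1.42.0, the quasi-likelihood test of edgeR, other scalings and filters, mouse pool as a block, summed pools, 2 groups only and each library left out. The members and lists were chosen with earlier results of these data known. Named genes were the 13 mitochondrially encoded genes, up to 5 called members in each direction of each comparison, isoform families, the most abundant nuclear subunit of complexes, Pecam1 and Emcn, and up to 3 called genes in each comparison from the lists of the rest of the pathway (not the cell markers). A result under this rule is left out here. The mouse pool in the labels pairs met and non-met libraries. Over pairs of a met and a non-met library, the correlation of deviations from group means was -0.034 to 0.013 within pools and -0.047 to 0.067 between pools.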

Additional observations from a re-analysis of the deposited data

Results flagged for a closer look

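ND3 in non-met replicate 1 stood apart from the other 5 non-met libraries, at 10.16 on the log2 CPM scale. Its gap to the nearest library was 0.824 of the range of the group, above the critical value of 0.625 for 6 libraries in Dixon's test. Of 17 groups tested this was the only 1 to pass, and chance alone passes about 1 in 20.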

How the results depend on the processing

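Between met and non-met, voomLmFit called 11 members (10 lower, CYTB higher), the quasi-likelihood test 6 (all lower, COX1 and CYTB among them), DESeq2 4 (Ndufaf5 and 3 mitochondrially encoded) and limma-trend 1, and voomLmFit called 5 with libraries of a pool summed, and 5 to 12 with a library left out (5 without met replicate 3). Between met and control (2) there were 0 with the quasi-likelihood test, DESeq2, limma-trend and 2 groups only, 1 with library size scaling, RLE scaling and summed pools, 4 without the low-count filter and without non-met replicates 1 and 2 together (chosen after seeing the data), and 0 to 5 with a library left out (0 without control replicate 2, 5 without control replicate 1). Between non-met and control (9) there were 3 with limma-trend and 4 to 10 with a library left out (4 without control replicate 2). With the mouse pool fitted as a replicate block, 11 genes were called between met and non-met, COX1 at 0.49 and CYTB at -0.65. The fitted change of CYTB between met and non-met (0.20) was -0.74 with the quasi-likelihood test, -0.87 with DESeq2, -0.77 with limma-trend, -0.053 with library size scaling, -0.035 with RLE scaling, -0.71 with summed pools, -0.44 with 2 groups only and -0.61 to 0.78 with a library left out. COX1 was 0.30 with 2 groups only. With a library left out, COX1 ranged over -0.66 to 0.47, ND1 over -1.76 to 0.32 and ND4 over -0.95 to 0.014. ND1 between met and control was -0.24 with summed pools, and the unweighted difference of CYTB there ranged over -0.013 to 0.69. The log2 ratio between met and control (-0.05) was 0.80 from mean log2 CPM and -0.39 to 0.39 with a library left out (0.39 without met replicate 3). Between non-met and control (0.85) it was 2.12 from mean log2 CPM and 0.64 to 1.03 with a library left out. The cause of these changes was not tested. The unweighted differences of the 13 genes between met and non-met and between non-met and control kept their direction in all alternatives run. A count of 0, found for 42 of 83 nuclear encoded genes in at least 1 library, allows up to 5.43 CPM in the shallowest library.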
